A study of Mus musculus with 2 samples.

Results

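Lgr4, Lgr5 and Lgr6, the 3 receptors for R-spondins, were followed through single cells of mouse intestinal adenoma organoids. They were picked by symbol from 27514 genes present in both count tables. Organoids are small 3-dimensional cultures, here grown from intestinal adenomas of C57BL/6 mice of genotype ApcMin/+, aged 17 weeks. These mice carry 1 truncated copy of Apc, which normally restrains Wnt/β-catenin signalling. One culture served as control and the other received RSPO1-Fc, R-spondin 1 fused to an antibody Fc part. The dose was 10 µg/ml in the protocol, whereas a sample label gives the same number in milligrams. Each group was 1 library, so the libraries were compared without replicates and no difference between them could be tested. The labels do not give the number of mice, cultures or the part of the intestine behind a library.

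LGR proteins sit in the cell membrane and bind secreted R-spondins. The bound pair draws the ubiquitin ligases RNF43 and ZNRF3 off the cell surface, which leaves more Frizzled and LRP receptors there to respond to Wnt. Lgr5 is itself a Wnt target and is best known as the marker of the stem cells at the base of intestinal crypts. Lgr4 is found more widely along the crypt, and Lgr6 is known mainly as a stem cell marker of skin.

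Epithelial cells were barcodes over the depth limit of their library, counted in unique molecular identifiers (UMIs), that held at least 5 UMIs of the epithelial adhesion gene Epcam. They made up 1881 of 2269 cells in the control and 2751 of 2767 with RSPO1-Fc, at median depths of 27736 and 23548 UMIs. The epithelial keratin Krt8 was at 1989 CPM (counts per 1000000 UMIs) in control epithelial and 20.2 CPM in the other control cells, and at 2689 CPM in RSPO1-Fc epithelial cells. No cell barcode was shared by the libraries. The other 388 control cells had a median of 14593 UMIs. They were sorted by marker genes into 184 macrophage, 78 endothelial, 81 fibroblast and 31 pericyte cells, and 14 others. These 14 had no call, or a call for a cell type with too few cells to list. Some control epithelial cells (122) also carried markers of a cell type outside the epithelium, against 4 with RSPO1-Fc. Summed macrophage markers were at 96.5 CPM in control epithelial cells and 4.13 CPM with RSPO1-Fc, and fibroblast markers at 62.0 and 1.01 CPM. The control table lists 6794880 barcodes and that of RSPO1-Fc lists 737280. The longer list has the length of the v3 chemistry, although the labels name v2 for both. Any effect of chemistry or of the culture therefore cannot be told apart from that of RSPO1-Fc. Levels are given in CPM, with exact 95% Poisson intervals in parentheses. They cover counting error only, not variation between cells or cultures.

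In the mm10 (GRCm38) assembly with GENCODE M21, Lgr4 (ENSMUSG00000050199) lies on the plus strand at chr2:109917647-110014257. Lgr5 (ENSMUSG00000020140) lies on the minus strand at chr10:115450311-115587780, where A930009A15Rik overlaps it on the other strand. Lgr6 (ENSMUSG00000042793) lies on the minus strand at chr1:134983301-135105276. None of the 3 overlaps another gene on its own strand. Lgr4 and Lgr6 matched the RefSeq promoter table (2 of the 3 receptors, Lgr5 being the other), and the 250 bases before their start sites are shown from it, since TCF/LEF proteins carry the Wnt signal to DNA (GRCm38.p6, 5′ to 3′ on the gene's strand), at chr2:109917397-109917646 (plus) and chr1:135105277-135105526 (minus).
Lgr4: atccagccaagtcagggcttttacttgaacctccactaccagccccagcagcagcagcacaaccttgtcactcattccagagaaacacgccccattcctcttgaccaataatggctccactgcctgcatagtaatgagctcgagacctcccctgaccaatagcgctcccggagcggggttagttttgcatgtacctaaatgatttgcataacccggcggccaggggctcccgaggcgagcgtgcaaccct
Lgr6: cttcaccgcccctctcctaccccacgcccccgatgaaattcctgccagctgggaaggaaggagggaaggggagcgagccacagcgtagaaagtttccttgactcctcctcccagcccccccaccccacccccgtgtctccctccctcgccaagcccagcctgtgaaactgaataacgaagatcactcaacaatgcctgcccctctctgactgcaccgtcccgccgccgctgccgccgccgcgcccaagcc
Letters in capitals would mark TCF/LEF motifs (CTTTG with A or T at each of the next 2 bases, on either strand). Neither window held one, as against 14.8% of 32851 mouse promoter windows of this length that did. The G and C share was 55.6% before Lgr4 and 65.2% before Lgr6.

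Lgr4 was the receptor found in most cells of the RSPO1-Fc library. In control epithelial cells its level was 43.9 CPM (42.3 to 45.5), from 2937 UMIs in 1085 cells (57.7%). With RSPO1-Fc the level was 103 CPM (101 to 106), from 7251 UMIs in 2255 cells (82.0%). This is 2.35-fold higher (2.25 to 2.45). When each cell was thinned at random to the depth limit of the RSPO1-Fc library, so that depth was equal, 20.5% and 44.5% of cells still showed Lgr4.

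Lgr5 went the other way. The control level was 84.7 CPM (82.5 to 86.9), from 5664 UMIs in 1019 cells (54.2%). With RSPO1-Fc it was 12.6 CPM (11.8 to 13.5), from 888 UMIs in 604 cells (22.0%), or 6.70-fold lower (6.24 to 7.20). At equal depth the shares of cells were 26.6% and 7.02%. The tail of cells rich in Lgr5 was missing: 162 control cells held 10 or more Lgr5 UMIs, up to 79 in 1 cell, whereas no RSPO1-Fc cell held over 9.

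Lgr6 was rare in the control and all but absent with RSPO1-Fc. The control level was 8.46 CPM (7.78 to 9.19), from 566 UMIs in 189 cells (10.0%), with up to 29 UMIs in 1 cell. The RSPO1-Fc library held 3 Lgr6 UMIs in 3 epithelial cells, a level of 0.0427 CPM (0.0088 to 0.125). The control level was 198-fold higher, with a counting interval of 67.5 to 964. At equal depth 3.24% of control cells showed Lgr6, and 0 of 2751 RSPO1-Fc cells did, which at this thinned depth allows a share of up to 0.109%. With all UMIs, 3 of the 2751 did.

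**Figure D1:**
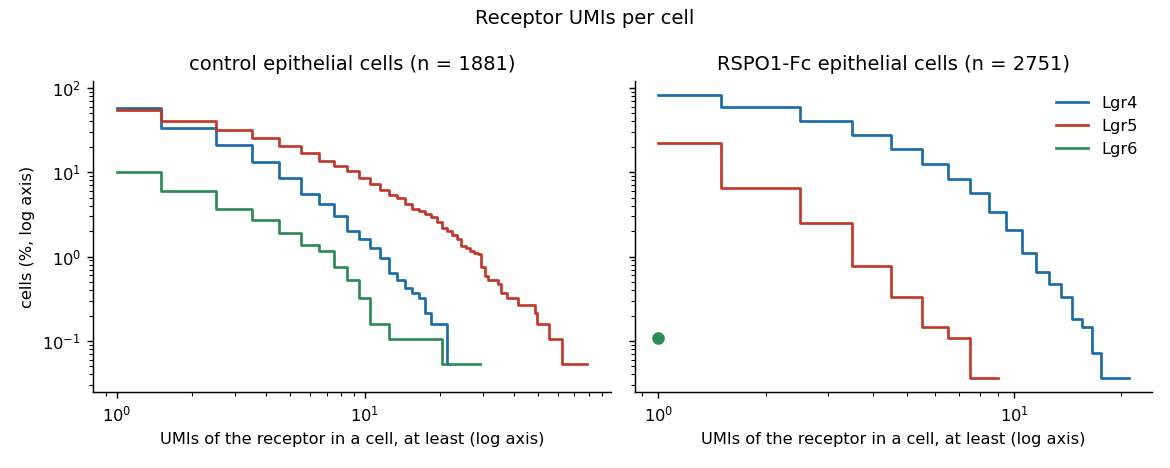
Share of epithelial cells (percent, log axis) with at least a given number of UMIs of each receptor (log axis), for 1881 control cells (left) and 2751 RSPO1-Fc cells (right). Lgr5 reaches 79 UMIs in a control cell and 9 in an RSPO1-Fc cell, while the Lgr4 curve lies higher with RSPO1-Fc and Lgr6 is a single point at 3 cells.

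On the log2 scale with a pseudocount of 1 CPM, the differences between libraries (RSPO1-Fc over control) were 1.21 for Lgr4, -2.65 for Lgr5 and -3.18 for Lgr6. Without the cells that carried markers of another cell type they were 1.20, -2.70 and -3.13. The median over the 10581 genes at 5 CPM or more in either library was -0.22. Of these genes 7% were at least 2-fold higher and 19.3% at least 2-fold lower. Lgr6 was 1 of 1605 of them that reached 5 CPM in a single library, in its case the control. Such genes tend to differ. Scaling by TMM factors in place of totals put the median over the 10581 genes at 0.13. The calls were then 1350 higher and 1327 lower, instead of 741 and 2046, while Lgr4 stood at 1.55 and Lgr5 at -2.32.

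Outside the epithelium the receptors were scarce in the control library. The 184 macrophages gave 4 Lgr4 UMIs, 1 Lgr5 UMI and no Lgr6 UMI at a median depth of 14622 UMIs. Their Lgr4 level was 1.36 CPM (0.37 to 3.48) and 2.17% of them showed it. For Lgr5 the level was 0.339 CPM (0.00859 to 1.89) and the share 0.543%. The epithelial shares lay far above these. Barcodes of over 100 and up to 500 UMIs, which mostly carry free RNA, held Lgr4 at 45.2 CPM, Lgr5 at 36.3 CPM and Lgr6 at 6.86 CPM in the control. Macrophage levels of all 3 were under these.

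Of the 3 receptors, Lgr4 was above the macrophage interval in stromal cells. Fibroblasts held 13.0 CPM (7.55 to 20.7), from 17 UMIs in 12 of 81 cells, of which 1 cell gave 6. Pericytes held 23.1 CPM (11.1 to 42.4), from 10 UMIs in 8 of 31 cells. These intervals overlap each other, and both lie above that of the macrophages and below the 43.9 CPM of the epithelium. The marker calls did not fully separate these 2 groups. The fibroblast marker Col3a1 was at 7140 CPM in fibroblasts and 3732 CPM in pericytes, and the pericyte marker Rgs5 at 713 and 11465 CPM. In endothelial cells Lgr4 was at 1.86 CPM (0.383 to 5.42). Lgr5 gave 2 UMIs in fibroblasts, 2 in endothelial cells and 0 in pericytes, and Lgr6 gave 1, 1 and 0.

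**Figure D2:**
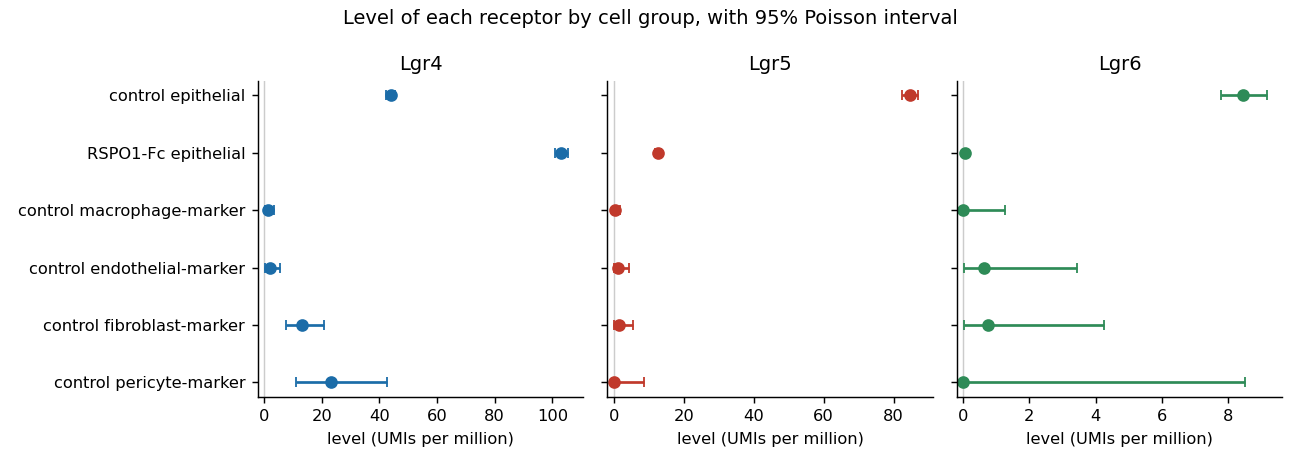
Level of Lgr4, Lgr5 and Lgr6 (CPM, separate axis for each gene) in epithelial cells of both libraries and in 4 groups of control cells named from markers. Points are pooled levels of a group and bars are 95% Poisson intervals. Epithelial Lgr4 is at 43.9 and 103 CPM, and pericytes and fibroblasts lie between macrophages and epithelium.

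The ligands were barely transcribed by the epithelium itself. None of the 6 genes of the ligand list (Rspo1 to Rspo4, Ndp and Tnfsf11) reached 5 CPM in either library. Rspo1, the gene of the added protein, gave 1 UMI in the control and 0 with RSPO1-Fc. Rspo3 was at 0.12 CPM (8 UMIs in 4 cells) in control epithelium and at 2.09 CPM (147 UMIs in 103 cells) with RSPO1-Fc. Rspo4 showed the reverse, with 75 UMIs over 59 cells of the control library and 2 over 2 cells of the other. In the control library all 26 Rspo3 UMIs outside the epithelium came from 13 fibroblasts, a level of 19.8 CPM (12.9 to 29.0).

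Of the genes that act beside the LGR receptors at the membrane (RNF43, ZNRF3, LRP, Frizzled, RYK and ROR2), 12 of 16 reached a mean of 5 CPM over both libraries, 3 of them with 1 library under it. This filter on the mean was added after the data had been seen, since a gene that passes through 1 library only tends to differ. With RSPO1-Fc, 4 of the 12 were higher and 8 lower, with 1 at least 2-fold higher and 4 at least 2-fold lower, and their median log2 difference was -0.59. Of all 10047 genes that passed, 4034 were higher and 6013 lower, and 6.57% were at least 2-fold higher and 17.6% at least 2-fold lower, with a median of -0.19. Under TMM the list gave 2 genes 2-fold lower and 2 higher. Rnf43, a ligase that the LGR complex removes, was at 154 CPM in the control and 66.3 CPM with RSPO1-Fc. Its partner ligase Znrf3 was at 86.8 and 25.1 CPM, and the Wnt co-receptor Lrp6 at 58.2 and 26.0 CPM. Among the Frizzled receptors, which bind Wnt, Fzd10 was at 19.0 and 3.13 CPM and Fzd7 at 3.27 and 9.89 CPM, each over 5 CPM in 1 library only.

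Of 15 Wnt feedback genes, which β-catenin switches on and many of which dampen Wnt, 14 passed the same filter. These 14 were at least 2-fold lower, with a median of -3.01 (13 of them under TMM, with a median of -2.68). One, Apcdd1, was over 5 CPM in the control only, at 12.2 and 0.370 CPM. Of the 14, Rnf43 and Znrf3 are also counted in the membrane list, and Axin2 in the crypt base list. Of 18 crypt base genes that passed, which mark the stem cell zone, 1 did so through a single library. Of these 18, 9 were at least 2-fold lower and 1 higher, with a median of -0.73, or 6 and 2 under TMM. Smoc2, a secreted crypt base protein, was 3.61-fold lower (3.48 to 3.75), less than Lgr5. Ascl2, a transcription factor of crypt stem cells, was 1.32-fold higher (1.24 to 1.40). The stem cell marker Olfm4 was too rare to compare, with 5 UMIs in the control and 0 with RSPO1-Fc.

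Within single control cells, Lgr4 and Lgr5 were found together about as often as their separate shares would give. At equal depth 100 cells held both, where 102.8 would follow from the shares, a ratio of 0.973 (0.791 to 1.18). With all UMIs the counts were 620 and 587.8. The RSPO1-Fc library gave 79 cells against 85.9, a ratio of 0.92 (0.728 to 1.15). At equal depth 40.9% of RSPO1-Fc cells with Lgr5 also showed Lgr4, which was itself in 44.5% of all cells. With all UMIs these shares were 83.1% and 82.0%.

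Lgr5 and Lgr6 were found together less often than their shares would give. At equal depth 5 control cells held both, where 16.2 would follow, a ratio of 0.308 (0.0999 to 0.718). Another random thinning gave 0.514. With all UMIs, 64 cells held both against 102.4, a ratio of 0.625 (0.481 to 0.798). Put another way, 33.9% of the 189 cells with Lgr6 showed Lgr5, against 54.2% of all control epithelial cells, although cells with Lgr6 held more UMIs. The levels gave the same order. Lgr5 was at 90.5 CPM in the 1692 cells without Lgr6, at 55.7 CPM in the 121 with 1 to 2 Lgr6 UMIs and at 47.9 CPM in the 62 with 3 to 9. Conversely Lgr6 was at 13.1 CPM in cells without Lgr5 and at 3.87 CPM in the 162 cells with 10 or more Lgr5 UMIs.

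Lgr6 was found with Lgr4 more often than the shares would give, at full depth. With all UMIs, 164 of the 189 cells with Lgr6 (86.8%) also held Lgr4, where 109 would follow from the shares, a ratio of 1.5 (1.28 to 1.75). At equal depth the ratio was 1.28 (0.731 to 2.08), from only 16 cells. The level of Lgr6 was 2.39 CPM in cells without Lgr4, 5.79 CPM with 1 to 2 Lgr4 UMIs, 15.1 CPM with 3 to 9 and 25.7 CPM with 10 or more. The median depth of these cells ranged from 21496 to 92376 UMIs in the same order, and its part in the result was not tested. Lgr5 also went up over the same groups, at 69.3, 81.4, 93.1 and 158 CPM. Over the 1881 control cells, which share a library and differ in depth, Pearson's r of log-scaled levels was 0.06 for Lgr4 with Lgr5, 0.19 for Lgr4 with Lgr6 and -0.12 for Lgr5 with Lgr6.

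**Figure D3:**
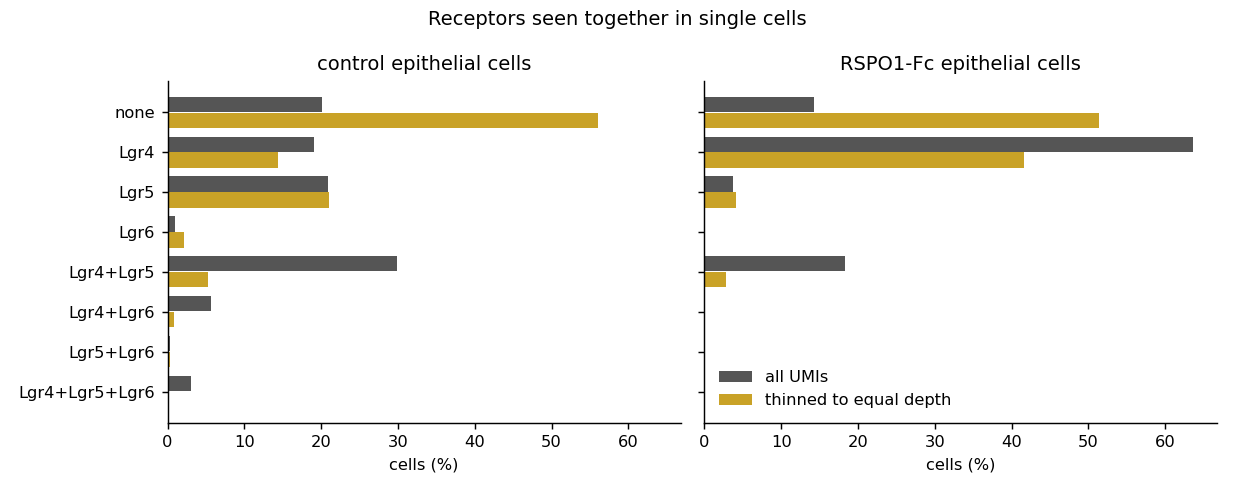
Share of epithelial cells (percent) by which of the 3 receptors had at least 1 UMI, with all UMIs (grey) and after thinning to equal depth (yellow), in each library. Cells with Lgr4 alone make up 63.6% of the RSPO1-Fc library against 19.0% of the control with all UMIs, and cells with Lgr5 and Lgr6 but no Lgr4 number 7 in the control.

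To relate the receptors to cell division, epithelial cells were ranked by the share of their UMIs in S and G2/M phase genes and cut into 4 equal groups. In the control, Lgr4 was at 36.8, 37.4, 37.2 and 56.2 CPM from the least to the most cycling group. The top group stood out, 1.53-fold above the bottom one (1.38 to 1.70). Lgr6 followed the same course, at 4.69, 5.48, 4.41 and 15.0 CPM, and was 3.2-fold higher at the top (2.44 to 4.25). The most cycling cells were also the deepest, with a median of 43684 UMIs against 23510 in the least cycling ones. At equal depth 26.4% of the top and 16.6% of the bottom group showed Lgr4, and 5.96% and 2.97% showed Lgr6.

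Lgr5 gave no order with the cell cycle that held at equal depth. Its control levels were 79.7, 78.8, 87.4 and 89.7 CPM, 1.13-fold higher at the top (1.05 to 1.21), beyond counting error. The shares of cells at equal depth, however, were 26.8%, 29.4%, 24.9% and 25.5%. Thinned levels turned the sign of the difference (log2 of top over bottom from 0.17 to -0.25). With RSPO1-Fc, Lgr5 was at 11.8, 15.4, 10.7 and 13.2 CPM, and Lgr4 was at 102, 99.6, 104 and 106 CPM. Neither top group differed from its bottom group beyond counting error: the ratios were 1.13 (0.923 to 1.38) for Lgr5 and 1.04 (0.971 to 1.11) for Lgr4.

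For differentiation, cells were ranked by enterocyte genes (digestive and absorptive enzymes and transporters) together with genes of the epithelial surface, such as keratins and small proline-rich proteins. The highest of these genes in the control were Krt7 (448 CPM), Krt23 (323 CPM) and the cell cycle inhibitor Cdkn1a (303 CPM). Lgr5 was lower in the higher-ranked groups of both libraries. In the control it was at 114, 108, 70.3 and 44.2 CPM, 2.57-fold lower at the top (2.36 to 2.81). With RSPO1-Fc it was at 21.8, 16.4, 8.16 and 4.80 CPM, 4.54-fold lower (3.56 to 5.84). The shares at equal depth had the same order, from 37.8% to 15.5% in the control and from 10.0% to 3.64% with RSPO1-Fc.

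Lgr6 ran against Lgr5 here, at 1.73, 5.16, 10.5 and 16.8 CPM in the control, 9.68-fold higher at the top (6.51 to 15.0). Its share at equal depth went from 0.425% to 5.96%. Lgr4 varied little, at 38.3, 44.4, 45.0 and 47.8 CPM in the control and at 106, 101, 105 and 99.4 CPM with RSPO1-Fc. Depth was alike in these groups, with medians between 25482 and 30980 UMIs in the control.

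The 2 gene lists did not act alike in the control. Ranked by surface genes alone, Lgr5 was 2.69-fold lower at the top (2.46 to 2.94). Ranked by enterocyte genes alone it was 1.71-fold higher (1.56 to 1.87), from 57.2 to 97.8 CPM, and Lgr4 was 2.63-fold higher (2.31 to 3.0), from 24.7 to 64.9 CPM. Enterocyte genes were sparse there: the median cell of the bottom group held none of their UMIs, and its depth was 20000 UMIs against 30753 at the top. Only Vil1, a structural protein of microvilli, was over 20 CPM (82.4), while Alpi, the brush border alkaline phosphatase, gave 2 UMIs. Lgr6 was higher at the top under either list, by 5.10-fold for surface genes (3.65 to 7.28) and by 57.7-fold for enterocyte genes (24.5 to 179), the latter from 5 UMIs in the bottom group. With RSPO1-Fc, Lgr5 was lower at the top under both, by 1.76-fold for enterocyte genes (1.42 to 2.18) and 4.96-fold for surface genes (3.88 to 6.40).

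Rankings by crypt base and by Wnt feedback genes were added after values had been seen, and are a description. Neither list holds a receptor. Ranked by crypt base genes, Lgr5 went from 41.4 to 150 CPM in the control, 3.63-fold higher (3.31 to 3.98), and from 7.05 to 23.9 CPM with RSPO1-Fc, 3.39-fold higher (2.77 to 4.18). So the RSPO1-Fc cells with the most crypt base RNA held less Lgr5 than control cells with the least. Lgr4 and Lgr6 were also higher at the top in the control, by 1.72-fold and 6.40-fold, but Lgr4 with RSPO1-Fc only by 1.05-fold (0.982 to 1.12).

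The receptors also differed along the Wnt feedback genes. In control cells ranked from low to high in them, Lgr6 was at 25.1, 2.89, 0.458 and 0.337 CPM, and 506 of its 566 UMIs lay in the lowest group. Lgr4 was at 67.8, 44.0, 33.2 and 22.3 CPM, 3.04-fold lower at the top (2.69 to 3.44). Lgr5 was at 72.7, 81.7, 95.6 and 93.0 CPM, 1.28-fold higher (1.19 to 1.38). At equal depth 11.3% of the lowest and 0 of the highest group showed Lgr6, against 31.0% and 12.3% for Lgr4 and 19.3% and 31.3% for Lgr5. The lowest group was the deepest, with a median of 34889 UMIs against 24254 in the highest. With RSPO1-Fc, Lgr4 showed no like decline, at 93.9, 110, 103 and 106 CPM, and Lgr5 was 2.79-fold higher at the top (2.30 to 3.39), from 8.48 to 23.6 CPM.

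**Figure D4:**
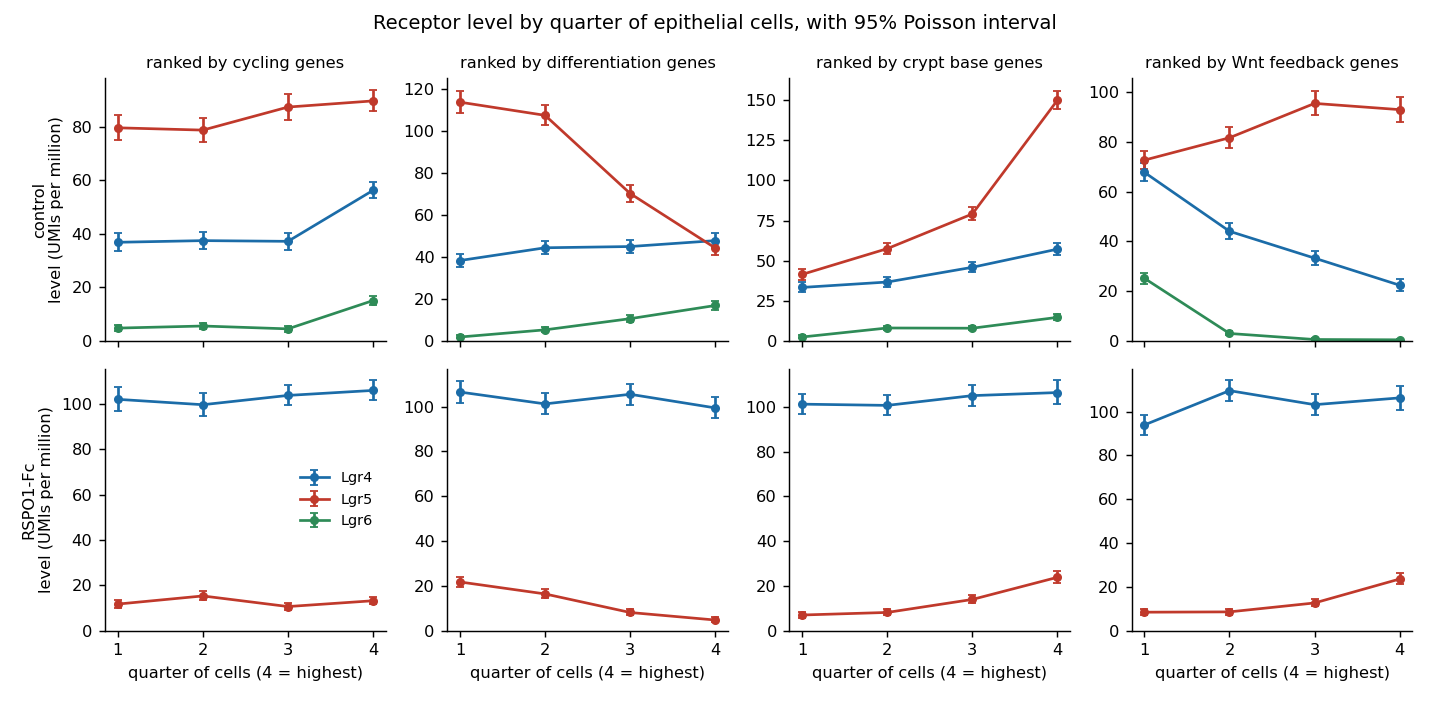
Level of each receptor (CPM) in 4 equal groups of epithelial cells ranked by the share of their UMIs in cycling, differentiation, crypt base or Wnt feedback genes, in the control (top) and with RSPO1-Fc (bottom, where Lgr6 with 3 UMIs is not drawn). Bars are 95% Poisson intervals. In the control, Lgr6 and Lgr4 are highest where Wnt feedback genes are lowest. All 3 receptors are highest in the top crypt base group of the control.

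The same contrast was seen from the side of the receptors. Summed Wnt feedback genes had a median of 3866 CPM per control epithelial cell. Among cells that showed a receptor at equal depth, the median was 4300 CPM with Lgr5, 3047 CPM with Lgr4 and 1577 CPM with Lgr6. Of the cells with Lgr6, 90% lay under 2659 CPM. With RSPO1-Fc the median was 293 CPM in all epithelial cells and 376 CPM in those with Lgr5, so the median of control cells with Lgr6 was above both.

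**Figure D5:**
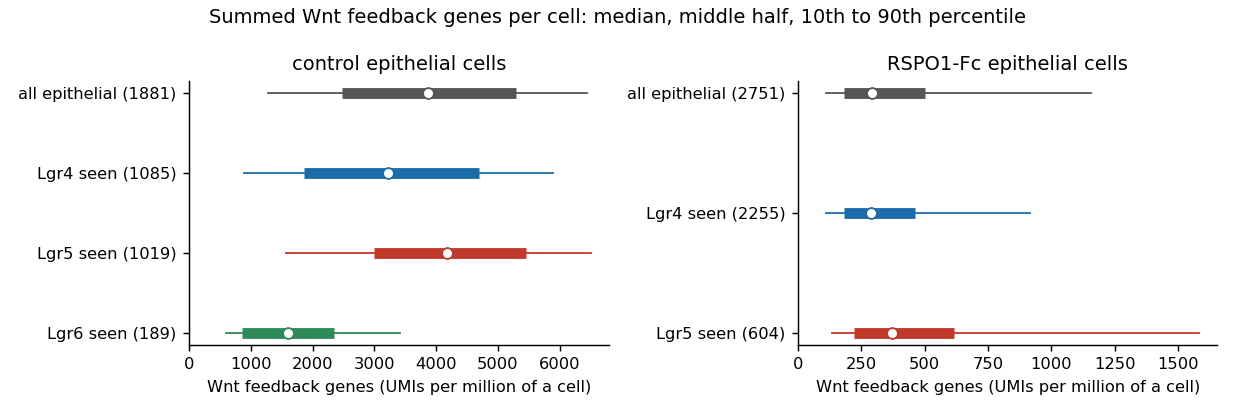
Summed Wnt feedback genes per epithelial cell (CPM of that cell) in all cells and in cells with at least 1 UMI of a receptor before thinning, with the number of cells in parentheses. Points are medians, thick bars hold the middle 50% of cells and thin bars reach from the 10th to the 90th percentile. Cells with Lgr6 lie lowest in the control, and the axes of the panels differ.

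Cells that showed a receptor at equal depth were then compared with those that did not, over genes with a mean of at least 20 CPM over both classes and a difference of at least 1.5-fold. Genes that reached 20 CPM in only 1 class are counted beside each list, since a gene that enters this way tends to differ. Cells are not replicates, so these counts describe the 2 libraries. For Lgr5 in the control (501 against 1380 cells), 1.46% of 6363 genes were higher and 1.26% lower. Of 16 crypt base genes measured (2 by 1 class), 4 were higher and 0 lower, with a median log2 difference of 0.23. Smoc2 was at 261 CPM in cells with Lgr5 and 148 CPM without. Rgmb, a co-receptor for bone morphogenetic proteins, reached 20 CPM only in cells with Lgr5, at 28.5 and 11.5 CPM. Axin2, a scaffold of the β-catenin destruction complex, did not differ, at 335 and 336 CPM. Of 7 surface genes 4 were lower and 0 higher, among them the cell cycle inhibitor Cdkn1a at 187 and 346 CPM. S phase genes gave 1 of 23 higher (1 by 1 class), and G2/M genes 0 of 34 in either direction. That S phase gene was Cdca7, which is also 1 of the 4 crypt base genes. Summed macrophage markers were at 43.4 CPM with Lgr5 and 116 CPM without, and fibroblast markers at 90.5 and 51.5 CPM. Cells with markers of another type made up 4.19% and 7.32% of the classes, and the part of these markers in the result was not tested.

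Secretory genes were also higher in control cells with Lgr5. Of 7 Paneth genes, which make antimicrobial proteins of the crypt base, 5 were higher and 0 lower (2 of the 7 by 1 class), and of 4 goblet genes 2 were higher (1 of the 4 by 1 class). Lyz1, the Paneth lysozyme, was at 261 CPM with Lgr5 and 67.7 CPM without, and Spink4, a goblet cell protease inhibitor, at 667 and 105 CPM. The defensin genes of the list are near-identical copies, and their separate values are uncertain. With RSPO1-Fc the same comparison gave 0 of 6 Paneth genes higher and 4 lower (1 of the 6 by 1 class), with Lyz1 at 63.3 and 96.9 CPM. The ranking by summed Paneth genes did not follow this, since Lgr5 was 2.35-fold higher in its top group (1.94 to 2.87), and no order was read.

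For Lgr5 with RSPO1-Fc (193 against 2558 cells), 0.464% of 5609 genes were higher and 0.784% lower. Of 7 Wnt feedback genes measured, 4 were higher and 0 lower, and the median log2 difference was 0.64. Notum, an enzyme that inactivates Wnt, was at 81.1 CPM with Lgr5 and 45.3 CPM without. Wif1, a secreted Wnt inhibitor and the 1 of the 7 that reached 20 CPM in a single class, was at 38.3 and 11.7 CPM. In the control 0 of 13 Wnt feedback genes were higher with Lgr5 and 2 were lower, with a median of 0.08. Notum was at 325 and 256 CPM there and Wif1 at 967 and 912 CPM. The 2 lower ones were Dkk2, a modulator of LRP receptors, at 98.5 and 189 CPM, and Bambi, a decoy receptor for bone morphogenetic proteins, at 40.1 and 63.1 CPM. With RSPO1-Fc, of 13 crypt base genes (1 by 1 class) 2 were higher and 0 lower, and Smoc2 was at 72.7 and 47.8 CPM. Of 12 surface genes 6 were lower and 0 higher.

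For Lgr6 in the control (61 against 1820 cells), 5.72% of 6263 genes were higher and 10.5% lower, the largest shares of the 5 comparisons, from the smallest class. These cells held a median of 37785 UMIs against 27529, and 11.5% of them carried markers of another cell type against 6.32%. Summed endothelial markers were at 36.1 and 83.4 CPM and pericyte markers at 21.3 and 53.4 CPM, and their part in the result was not tested. Of 13 Wnt feedback genes (2 by 1 class) 9 were lower and 1 higher, and their median log2 difference was -1.04. Wif1 was at 136 CPM with Lgr6 and 963 CPM without, Prox1, a transcription factor of adenoma progression, at 147 and 561 CPM, and Nkd1, an inhibitor of Dishevelled, at 416 and 854 CPM. Bambi was the 1 gene higher, at 106 and 54.7 CPM.

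The crypt base list split in cells with Lgr6, with 4 of 14 genes higher and 1 lower. Ascl2 was at 51.2 CPM with Lgr6 and 26.7 CPM without, and Cd44, a hyaluronan receptor, at 158 and 74.7 CPM, whereas Smoc2 was at 59.8 and 184 CPM. S phase genes were higher in 16 of 27 cases and lower in 0 (median log2 difference 0.62, 5 of the 27 by 1 class), and G2/M genes in 6 of 34 and 0 (0.31, 1 by 1 class). Rrm2, a subunit of the enzyme that makes deoxyribonucleotides, was at 45.7 and 21.4 CPM. The 5 measured Paneth genes were lower (3 by 1 class), and cells ranked by summed Paneth genes went the same way, with Lgr6 6.12-fold lower at the top (4.38 to 8.75). Of 3 goblet genes 2 were lower (2 by 1 class). Ranking by summed goblet genes did not follow this: Lgr6 was 3.51-fold higher at the top (2.45 to 5.16), with shares at equal depth of 1.91% and 5.96%, and no order was read. Of 8 surface genes (1 by 1 class) 4 were higher and 0 lower. Of 8 fetal or regenerative genes (1 by 1 class) 5 were higher and 1 lower, with Ly6a, a marker of regenerating epithelium, at 431 and 131 CPM and Clu at 228 and 517 CPM. In cells ranked by the sum of this list, Lgr6 was 1.36-fold higher at the top (1.05 to 1.76). Its shares at equal depth were 3.18%, 2.98%, 3.40% and 3.40% from bottom to top, and no order was read.

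For Lgr4 fewer genes passed 1.5-fold. In the control (386 against 1495 cells) 0.645% of 6358 genes were higher and 1.24% lower, and with RSPO1-Fc (1224 against 1527 cells) 0.0893% and 0.0536% of 5602. None of 13 Wnt feedback genes passed it in the control, though their median was -0.32. None of 24 S phase or 34 G2/M genes passed it either, with medians of 0.12 and 0.31. Paneth genes did pass: 3 of 6 were higher and 2 lower in the control (2 of the 6 by 1 class), and 4 of 8 were higher and 1 lower with RSPO1-Fc (2 of the 8 by 1 class). Lyz1 was at 77.9 and 132 CPM in the control but at 123 and 72.1 CPM with RSPO1-Fc. The ranking by summed Paneth genes did not follow these counts. Lgr4 was 1.16-fold lower in its top group in the control (1.05 to 1.29). With RSPO1-Fc the ratio of top to bottom was 0.955 (0.891 to 1.02), and no order was read. Summed endothelial markers were at 49.9 CPM with Lgr4 and 90.8 CPM without in the control, and fibroblast markers at 85.2 and 55.0 CPM, and their part was not tested.

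The genes most like each receptor were taken by Pearson's r over cells, as a description without a test, among 10619 genes in the control and 9601 with RSPO1-Fc. All points share a library and differ in depth. For control Lgr5 the highest were Cd177 (0.51), Wfdc18 (0.48), Col9a3, Arhgef26 and Tstd1, and the lowest were Stra6 (-0.31), Cdkn1a, Krt19, Ecm1 and Irx4. For control Lgr6 the highest were Ceacam1 (0.52), Phgr1, Lgals4, Fbp2 and Plac8, and the lowest were Wif1 (-0.43), Ifitm3, Ly6e, Slc25a4 and Gstm5. For control Lgr4 the highest were Lgals4 (0.42), Ckmt1, Ceacam1, Slc12a2 and Golm1, and the lowest were Srp14 (-0.38), Wnt6, Mt3, Hacd2 and Ptn. Ceacam1 and Lgals4 thus headed the lists of both Lgr4 and Lgr6, while their r with Lgr5 was -0.06 and -0.02.

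With RSPO1-Fc the values were smaller. For Lgr5 the highest were Bnip3 (0.23), Ifitm1, Smoc2 (0.22), Tpi1 and Aldh1b1, and the lowest were Tagln2 (-0.21), Sfn, 2200002D01Rik, Krt19 (-0.19) and Serpinb6a. Smoc2 and Krt19 had r of the same sign with Lgr5 in the control, at 0.35 and -0.30. Cd177, the first gene in the control, was at 128 CPM there and 0.597 CPM with RSPO1-Fc. For Lgr4 the highest were Actb (0.22), Slc39a1, Cbx3, Kdelr2 and Ttyh2, and the lowest were Cfl1 (-0.14), Myl12a, Cd24a, Rpl7 and Actg1.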

How the data were processed

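Per the labels' protocols, 10x Chromium 3′ libraries (kit v2, a target of 5000 cells each) were sequenced to 58414 (control) and 131291 (RSPO1-Fc) reads per cell, with mm10 as the genome. Cell Ranger 2.1.1 and Seurat 3.1.1 are the tools given in the submitters' processing notes. Per the file headers the control matrix came from Cell Ranger 3.1.0, and the other header names no software. The authors deposited UMI counts without normalization for every barcode, cell or not, with totals of 91675581 (control) and 89437327 (RSPO1-Fc). Cells held 80.2% and 78.9% of them.

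Groups followed the treatment label. UMIs were summed over cells and scaled over the 27514 genes shared by Ensembl identifier. Cells outside the epithelium were named by at least 10 UMIs over at least 3 markers of a list. Doublets were kept: scrublet in scanpy 1.11.5 at its own threshold marked 12 and 1 cells, so the alternative removed the highest scores, 41 and 61 cells. Intervals are exact Poisson (levels), conditional Clopper-Pearson (ratios) and Clopper-Pearson (shares), and a share of 0 is limited at 3 counts. UMIs remove amplification copies, but the intervals cover counting error only. Depth was matched by seeded hypergeometric thinning. No p-value was computed, as each group is 1 library. TMM factors came from edgeR 4.0.16 in R 4.3.3, and other steps from Python 3.11.15, numpy 2.4.6, scipy 1.17.1 and pandas 2.3.3. The steps were tested on simulated data.

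Lgr4, Lgr5 and Lgr6 were always named, other genes came from the ligand, membrane, crypt base, Wnt feedback and marker lists, and like genes were the 5 highest and 5 lowest r among genes seen in at least 10% of cells. List genes were singled out after their values were seen. Some genes stand in 2 lists and are counted in each. Among them, Rnf43 and Znrf3 are membrane and Wnt feedback genes, and Axin2 is a crypt base and Wnt feedback gene. Cdca7 is a crypt base and S phase gene, and Anxa1 a surface and fetal or regenerative gene. The receptors and lists were chosen with earlier results of these data known. A combined R object of the authors was not used here.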

Additional observations from a re-analysis of the deposited data

Results flagged for a closer look

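Lgr4 was also found outside called cells. In the RSPO1-Fc library, barcodes of over 100 and up to 500 UMIs held it at 88.9 CPM (83.5 to 94.5), above the 45.2 CPM (40.4 to 50.5) of such barcodes in the control. These barcodes entered no comparison of cells. Their profile was subtracted at the share of each library's UMIs outside cells, where cells held 80.2% (control) and 78.9% (RSPO1-Fc). This put the log2 difference of Lgr4 between libraries at 1.33. The share of free RNA within cells was not measured, and control macrophages held Lgr4 at 1.36 CPM. Lgr6 had 27 UMIs over all RSPO1-Fc barcodes, of which 3 were in cells.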

How the results depend on the processing

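Of 139 values recomputed under the alternatives, 111 stayed within the counting interval or, for counts of genes, within 1.5 times the original. The other 28 are given here, as log2 differences unless said otherwise, and the cause was not tested. Between libraries, median of ratios scaling gave 1.54 for Lgr4, -2.33 for Lgr5 and 1329 genes higher and 1342 lower. TMM gave 1.55, -2.32, 1350 and 1327. A pseudocount of 0.1 CPM put Lgr6 at -5.91, a minimum of 20 CPM left 480 genes higher and 1237 lower, and subtracting free RNA put Lgr4 at 1.33. Thinning to 3000 UMIs put the ratio of cells with Lgr4 and Lgr6 together at 2.09. For cycling, the control Lgr5 difference was -0.25 with thinned UMIs, a reversed sign, and 0.32 with S phase genes alone. Control Lgr6 gave 1.09, 2.29 with S phase and 0.96 with G2/M genes alone, and thinned UMIs gave 0.18 for Lgr4 and -0.19 for Lgr5 with RSPO1-Fc. For differentiation, enterocyte genes alone gave 1.39 for control Lgr4, 0.77 for control Lgr5 and 0.075 for RSPO1-Fc Lgr4, the latter 2 reversed, and -0.81 for RSPO1-Fc Lgr5. Control Lgr6 was 4.17 with thinned UMIs, 5.85 with enterocyte and 2.35 with surface genes alone, and RSPO1-Fc Lgr5 was -1.51 with thinned UMIs. Leaving out cells with markers of another type, and asking for 5 CPM in the mean of both libraries, were added after seeing the data. So was the mean of both classes as the filter within a library. With 20 CPM in either class instead, cells with Lgr6 gave 17 of 29 S phase genes higher (7 of the 29 by 1 class). Higher too were 6 of 37 G2/M (4 of the 37 by 1 class) and 5 of 16 crypt base genes (2 of the 16). Of the same 16 crypt base genes, 2 were lower. Lower were 7 of 7 Paneth (5 of the 7 by 1 class) and 3 of 4 goblet genes (3 of the 4). Of all 6746 genes in that comparison, 6.52% were higher and 12.3% lower. RSPO1-Fc cells with Lgr5 gave 6 of 8 Paneth genes lower (3 of the 8 by 1 class), against 0.862% of all 5799 genes. No paired analysis was possible because each group has 1 library. Lgr6 with 3 UMIs in RSPO1-Fc cells limits any statement on it in that library.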
